A study of Mus musculus with 8 samples.

Results

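The genes described here are 44 mouse genes of the cell cycle and of cell cycle exit, out of 21853 protein-coding genes with an annotated transcription start site (TSS) on the main chromosomes. They were listed by name in 5 roles: 6 genes that start G1, 10 E2F factors and G1/S genes, 7 genes of DNA replication, 11 genes of G2 and mitosis, and 10 inhibitors and exit genes. A peak was counted for a gene when its summit lay in the gene body, or when the gene's TSS was the nearest protein-coding TSS within 100 kb. This rule names a neighbour and does not show that the gene is regulated. It gave the 44 genes 243 of the 139188 deposited peaks, which merged into 80 of the 46070 regions that the libraries formed together.

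The peaks come from chromatin immunoprecipitation followed by sequencing (ChIP-seq) of 3 factors, NFIA, NFIB and NFIX. The cells were granule neuron progenitors, precursors that still divide in the cerebellum of 7-day-old mice. There were 2 libraries per factor, made from outbred CD1 animals and from animals of mixed background, which the labels liken to CD1. The labels name no deletion or treatment in any group. They are called NfiA CD1, NfiA Mixed and so on below, and nothing in the labels says that they came from separate animals. For NFIB the sample labels and the series' design text name different antibodies. The 2 input samples were not analysed here. Peak lists hold no expression values, so the identity of the cells cannot be read from them. Peaks were assigned to 5 of 5 marker genes of the granule lineage (Atoh1, Barhl1, Zic1, Pax6 and Neurod1). The same held for 4 of 4 of glia (Gfap, Olig2, Aldh1l1 and Mbp) and 1 of 2 of Purkinje cells, Calb1 and not Pcp2. Of all protein-coding genes, 48.4% had a peak. The rule gives the granule and glia markers more genome, at medians of 107 and 101 kb against 52.3 kb for all genes.

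NFI proteins bind DNA as dimers at a palindrome of TTGGC and GCCAA, and bind more weakly to a single arm. Granule neuron progenitors divide in the outer layer of the postnatal cerebellum under Sonic hedgehog, which raises Mycn and D-type cyclins, and then leave the cycle and become granule neurons. D-type cyclins with Cdk4 or Cdk6 inactivate the retinoblastoma proteins and so release E2F factors, which switch on the genes of DNA replication. Inhibitors of the Cip/Kip and Ink4 families and the antiproliferative Btg proteins act in the opposite direction.

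The lists held 7497 peaks in NfiX CD1, 16993 and 23541 in NfiA CD1 and Mixed, 36431 and 33283 in NfiB CD1 and Mixed, and 21443 in NfiX Mixed. Summits held 21 to 28 fragments at the median of each list, and the median fold enrichment over local background, a value the authors' peak caller gave to each peak, was 5.51 to 6.03. Counts per library are therefore read beside the same count over all genes. Where folds are listed by factor, CD1 comes before Mixed. A percentile is the rank of a fold within its own list, in which 100 is the strongest peak.

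At least 1 library had a peak at 27 of the 44 genes (61.4%), while 48.4% of all protein-coding genes had one. With only the 7497 strongest peaks of each library the count was 15 members (34.1%, against 23.2% of all genes). In single libraries, NfiB CD1 had peaks at 24 members (54.5%, against 42.0% of all genes), NfiB Mixed at 20 (45.5%, against 41.0%), NfiA Mixed at 18 (40.9%, against 33.9%), NfiX Mixed at 18 (40.9%, against 31.0%), NfiA CD1 at 14 (31.8%, against 26.3%) and NfiX CD1 at 6 (13.6%, against 15.4%). A common region, with a peak in all 6 libraries, was found at 6 members, Mycn, E2f1, E2f3, Cdk1, Rbl2 and Btg1. That share of 13.6% was close to the 13.2% of all genes. These 6 were also the members with a NfiX CD1 peak, and 8 of the 8 NfiX CD1 member regions were common, as were 82.4% of all NfiX CD1 regions. Another 6 members, Ccnd2, Cdk6, Mcm3, Ccnb2, Mki67 and Cdkn1c, had peaks in each library but NfiX CD1, which has the shortest list. The same count over all genes was not made. Regions with peaks in all libraries but NfiX CD1 made up 16.2% of member regions and 12.1% of all regions. Without NfiX CD1 12 members had a region shared by the other 5 libraries (27.3%, against 21.3% of all genes).

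**Figure D1:**
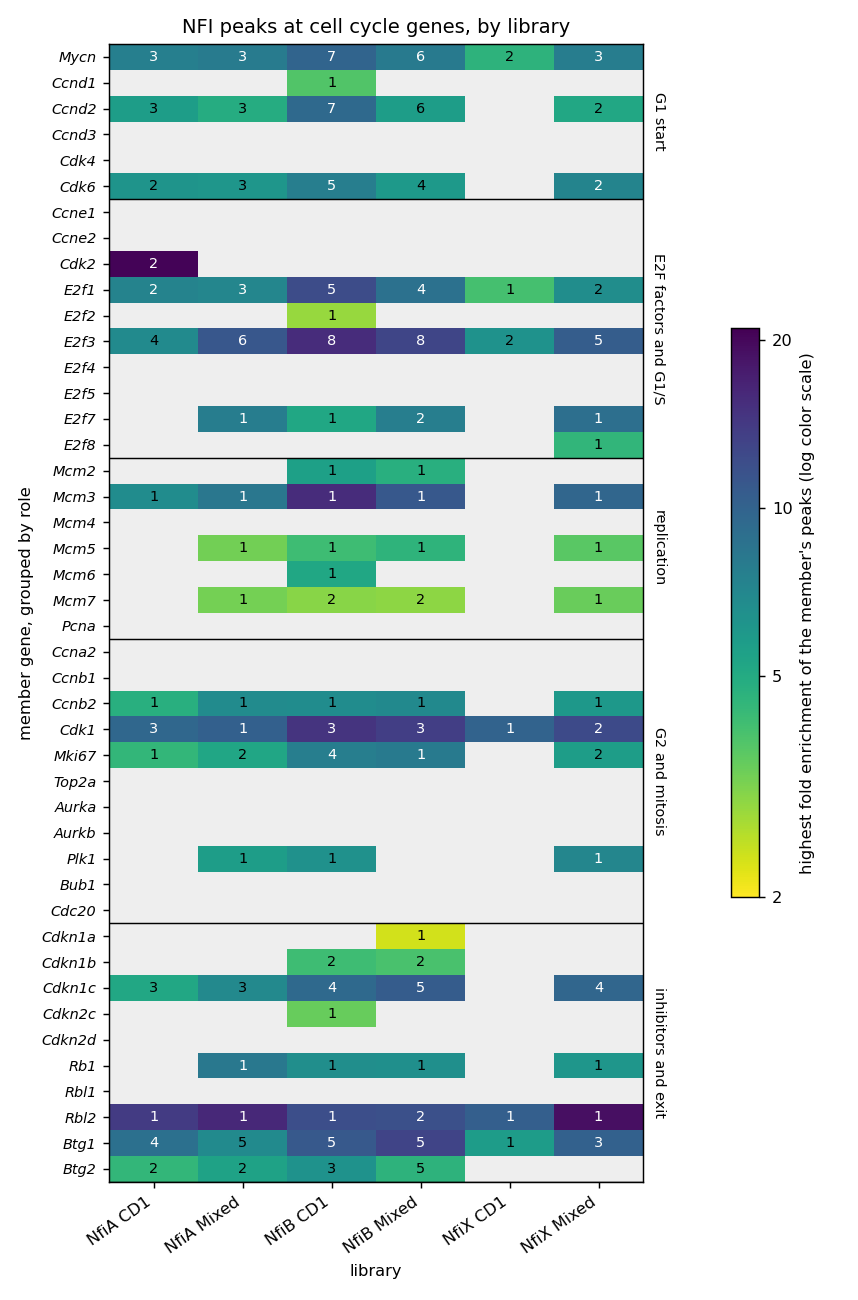
The 44 genes (rows, by role) against the 6 libraries (columns). Colour gives the highest fold enrichment among the gene's peaks on a log scale, the number gives its regions in that library, and grey cells have no peak; 17 rows are grey throughout, and the darkest cell is Cdk2 in NfiA CD1.

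Among the genes that start G1, 4 of 6 had a peak (66.7%, against 48.4% of all genes), and they held 22 of the 80 regions. Mycn, the Myc family factor that drives division of these progenitors, had 8 regions, 2 of them common. The common region with the higher mean percentile lay 62.8 kb downstream of its TSS (chr12:12877551-12878266), with folds of 7.60 and 7.89 for NFIA, 9.86 and 7.92 for NFIB, and 4.45 and 7.74 for NFIX. Within their own lists these peaks had a percentile of 71.7 or higher, except in NfiX CD1, where it was 14.1. The other common Mycn region, 35.8 kb downstream (chr12:12904094-12905080), lay in the noncoding gene 4930519A11Rik and had folds of 4.59 to 8.46 on 48 to 175 fragments. A region in a Mycn intron, 2.1 kb from the TSS, had peaks in each library but NfiX CD1, with folds of 5.07 and 7.01 for NFIA, 9.04 and 8.03 for NFIB, and 5.08 for NfiX Mixed. The closest other protein-coding TSS lay 311 to 371 kb from these 3 regions.

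Ccnd2, which encodes cyclin D2, had 7 regions, 5 in or at exons and introns of its own gene and 2 upstream. Its most widely shared region, 29.4 kb upstream (chr6:127181217-127181871), had folds of 3.39 and 3.78 for NFIA, 6.41 and 5.13 for NFIB, and 3.44 for NfiX Mixed. These were mostly low in their lists, with percentiles from 2.82 to 59.1, although the summits held 40 to 111 fragments. The peak 27.0 kb upstream had the highest fold of the gene, 9.44 in NfiB CD1, and was absent from NfiA Mixed and NfiX CD1. Cdk6, a kinase partner of D-type cyclins, had 6 regions, each in its introns. The region 50.9 kb downstream of the nearest Cdk6 TSS (chr5:3394980-3395489) had folds of 3.98 and 5.19 for NFIA, 6.37 and 5.88 for NFIB, and 5.21 for NfiX Mixed. Ccnd1, the cyclin D1 gene, had a single peak in NfiB CD1 (fold 3.79, 20 fragments) where its UTR overlaps the gene LTO1. Cdk4, the other cyclin D kinase, and Ccnd3, cyclin D3, had none.

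The E2F and G1/S genes had peaks at 6 of 10 members (60.0%, against 48.4% of all genes). E2f1 and E2f3, activators of replication genes, had 5 and 9 regions. A common region 32.7 kb upstream of E2f3 (chr13:30018461-30019008) had folds of 6.83 and 10.5 for NFIA, 15.6 and 9.39 for NFIB, and 6.26 and 10.4 for NFIX, on 11 to 37 fragments. Farther upstream, at 54.4 kb (chr13:30040192-30040715), the other E2f3 common region had folds of 5.97 and 11.1 for NFIA, 15.3 and 12.8 for NFIB, and 6.34 and 10.5 for NFIX, on 33 to 120 fragments. Both stood above the middle of every list, at a percentile of 51.4 or higher. Of the 9 E2f3 regions, 8 lay upstream between 17.3 and 69.3 kb in intergenic sequence, and the closest other protein-coding gene was Mboat1.

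The common E2f1 region lay 14.2 kb upstream (chr2:154583856-154584669), between E2f1 and Pxmp4, whose TSS was 19.6 kb away. Its folds were 7.33 and 7.14 for NFIA, 12.2 and 8.30 for NFIB, and 4.0 and 5.84 for NFIX. Its rank within the lists varied most among the common regions, from a percentile of 6.86 in NfiX CD1 to 90.2 in NfiB CD1. An intronic E2f1 region 3.95 kb from the TSS had peaks in all but NfiX CD1, with folds of 6.29 to 9.01. E2f7 and E2f8, repressors of the family, were nearest to 2 and 1 distal regions. E2f2 had a single weak peak, and E2f4, E2f5 and the cyclin E genes Ccne1 and Ccne2 had none.

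Cdk2, the kinase partner of cyclin E, differed from the other members. It had 2 peaks, both in NfiA CD1 and in no other library. Each covered a coding exon: a 422 bp peak on an exon of 204 bp (chr10:128699369-128699790, fold 20.6, 61 fragments) and a 427 bp peak on an exon of 121 bp (chr10:128703567-128703993, fold 12.7, 33 fragments). They ranked 80 and 798 among the 16993 peaks of that list. What these NfiA CD1 peaks come from was not tested. Without that library Cdk2 had no peak and 26 members had one.

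Of the 7 replication genes, 5 had peaks (71.4%, against 48.4% of all genes), none of them common. Mcm3, a subunit of the replicative helicase, had the strongest region of the group, 19.8 kb upstream (chr1:20839947-20840292), with folds of 6.72 and 8.23 for NFIA, 15.6 and 11.0 for NFIB, and 9.68 for NfiX Mixed. These had percentiles of 65.2 to 95.5 in their lists. The other helicase subunits with peaks were Mcm2, Mcm5, Mcm6 and Mcm7, with folds of 2.73 to 5.52. Mcm4 and Pcna, the sliding clamp of DNA polymerase, had no peak.

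G2 and mitosis genes had peaks at 4 of 11 members (36.4%, against 48.4% of all genes), the lowest share of the 5 roles. The group's most strongly enriched region was the common region of Cdk1, the kinase that drives entry into mitosis. It lay 24.1 kb downstream of the TSS in intergenic sequence (chr10:69326393-69326921), and the closest other protein-coding TSS was that of Rhobtb1, 47.4 kb away. Its folds were 9.60 and 10.2 for NFIA, 14.8 and 13.6 for NFIB, and 9.97 and 12.4 for NFIX, on 44 to 95 fragments. Its percentile lay between 87.6 and 94.5 in all 6 lists. Mki67, the gene of the proliferation marker Ki-67, had 4 upstream regions. The most distant, at 86.6 kb (chr7:135802616-135803221), had folds of 4.41 and 5.24 for NFIA, 7.68 and 7.99 for NFIB, and 4.68 for NfiX Mixed. Ccnb2, cyclin B2, was nearest to a region in an intron of Myo1e (folds 4.78 to 6.90 in 5 libraries). Plk1, a mitotic kinase, was nearest to an upstream region with folds of 5.65 to 7.14 in 3 libraries, on 12 to 14 fragments. No peak was assigned to Ccna2, Ccnb1, Top2a, Aurka, Aurkb, Bub1 or Cdc20.

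The inhibitors and exit genes had peaks at 8 of 10 members (80%, against 48.4% of all genes), the highest share of the 5 roles. They held 23 regions. The rule gives these genes more genome, at a median of 84.7 kb against 52.3 kb for all genes. The common region with the highest mean percentile over the 6 libraries, 94.0, was nearest to Rbl2, which encodes the retinoblastoma relative p130 found in resting cells. It lay 18.8 kb upstream of the Rbl2 TSS (chr8:91050993-91051467) but inside a coding exon of Chd9, a chromatin remodeller gene. Folds were 14.0 and 16.0 for NFIA, 11.9 and 11.8 for NFIB, and 10.3 and 19.1 for NFIX, and each peak had a percentile of 89.6 or higher. Its 6 summits lay within 19 bp of each other, the tightest of the common regions. This is the only common member region inside an annotated exon of a protein-coding gene, so its sequence could be read from the transcripts (GENCODE M21, GRCm38, chr8:91051185-91051285, plus strand). The capitals mark the word TGCCAA, the reverse complement of TTGGCA, another 5-base arm GCCAA, and between them a shorter palindrome of TGGC and GCCA set 5 bases apart.
Chd9 coding exon: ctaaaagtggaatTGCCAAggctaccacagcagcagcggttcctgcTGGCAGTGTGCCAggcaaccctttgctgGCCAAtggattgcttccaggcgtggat
The shorter palindrome, at chr8:91051231-91051243, was 0 to 11 bp from the 6 summits. It was looked for after the sequence had been seen, and 0.320% of 101-base windows at the middle of the RefSeq promoters described below hold it. The same windows hold TTGGCA in 4.91% and the 5-base arm in 21.2% of cases. They are promoters, and no share over coding exons is given here. The full palindrome with TTGGC and GCCAA was not in the Chd9 window.

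Btg1 and Btg2, antiproliferative genes, had 6 and 5 regions. A common region 30.8 kb downstream of Btg1 (chr10:96648262-96648552) had folds of 7.42 and 6.78 for NFIA, 10.5 and 5.61 for NFIB, and 5.71 and 6.22 for NFIX, on only 14 to 35 fragments. The Btg1 region 36.6 kb upstream (chr10:96580176-96580610), in the noncoding gene Gm33843, had peaks in 5 libraries, with none in NfiX CD1 (folds of 8.79 and 6.47 for NFIA, 10.9 and 13.0 for NFIB, and 10.1 for NfiX Mixed). For Btg2, induced as neural precursors take their last divisions, the most widely shared region lay 15.5 kb downstream (chr1:134063270-134063793). Its folds were 3.66 and 2.58 for NFIA and 4.62 and 3.04 for NFIB, low in each list, and it had no NFIX peak. A coding exon of Btg2 itself carried peaks in NfiA Mixed, NfiB CD1 and NfiB Mixed, with folds of 5.40, 6.32 and 4.60.

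Of the Cip/Kip inhibitors of cyclin-dependent kinases, Cdkn1c (p57) had 5 regions, Cdkn1b (p27) had 2 and Cdkn1a (p21) had 1. The strongest Cdkn1c region by mean percentile lay 12.8 kb downstream (chr7:143447148-143447580), with folds of 6.95 for NfiA Mixed, 8.85 and 9.32 for NFIB and 7.70 for NfiX Mixed. A more widely shared Cdkn1c region, 31.6 kb downstream (chr7:143428201-143428772), had folds of 4.84 and 6.74 for NFIA, 9.43 and 10.6 for NFIB, and 9.65 for NfiX Mixed. Another 2 of its regions lay in an intron of the neighbouring gene Kcnq1. The p27 and p21 genes had peaks in NfiB libraries alone, with folds of 2.92 to 4.17 and 2.35. Of the Ink4 inhibitors, Cdkn2c had a NfiB CD1 peak (fold 3.44) and Cdkn2d had none. Rb1, the retinoblastoma gene, had an intronic region in 4 libraries, 109 kb into the gene (folds 6.12 to 8.20, on only 11 to 19 fragments), and its relative Rbl1 had no peak.

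**Figure D2:**
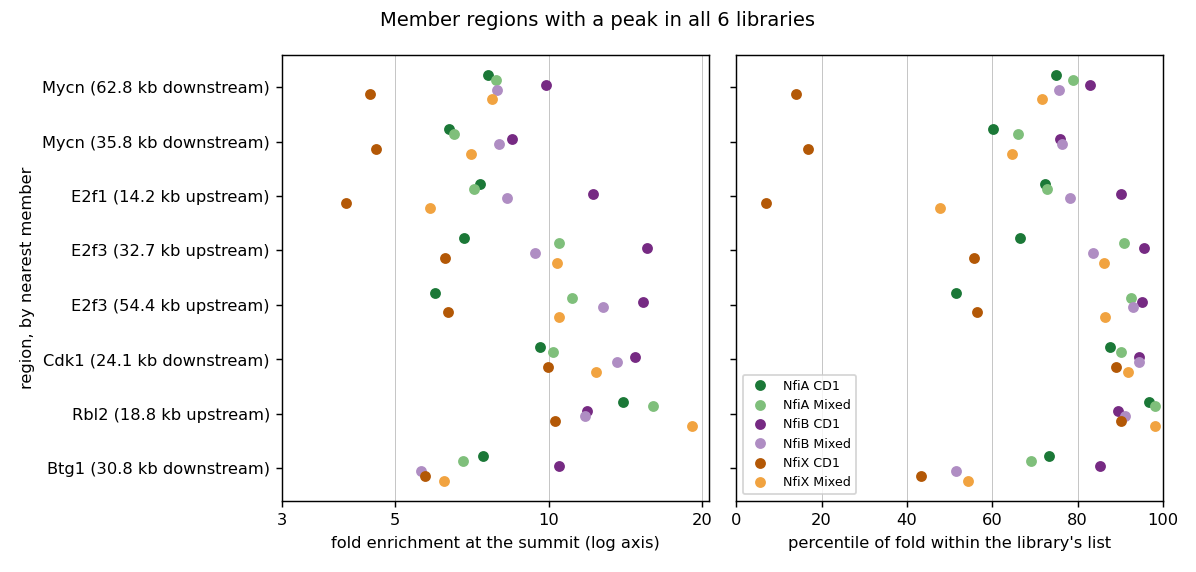
The 8 common member regions (rows, named by nearest member with distance from its TSS), with 1 point per library. The left panel gives fold enrichment on a log axis and the right panel the percentile of that fold in the library's own list; the Cdk1 and Rbl2 regions stand at 87.6 or higher throughout, while the NfiX CD1 points of Mycn and E2f1 lie between 6.86 and 16.9.

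The 8 common regions lay between 14.2 and 62.8 kb from the member's TSS, and 7 of them were intergenic. None remained as a member's region when the distance limit was 10 kb, where 8.79% of all genes still had a common region. With the 7497 strongest peaks of every library, 3 members kept one, E2f3, Cdk1 and Rbl2 (6.82%, against 6.96% of all genes). Member regions within 1 kb of a protein-coding TSS numbered 13, and their median of mean percentiles was 8.74 (7.88 over all 3898 such regions). The 16 regions between 1 and 10 kb had a median of 26.3 (33.6 over all regions), the 32 between 10 and 50 kb one of 43.8 (39.4) and the 19 farther away one of 40.3 (45.9). Common regions made up 0 of 13, 0 of 16, 6 of 32 and 2 of 19 in these bins, against 3.82%, 10.7%, 12.9% and 15.7% over all regions.

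**Figure D3:**
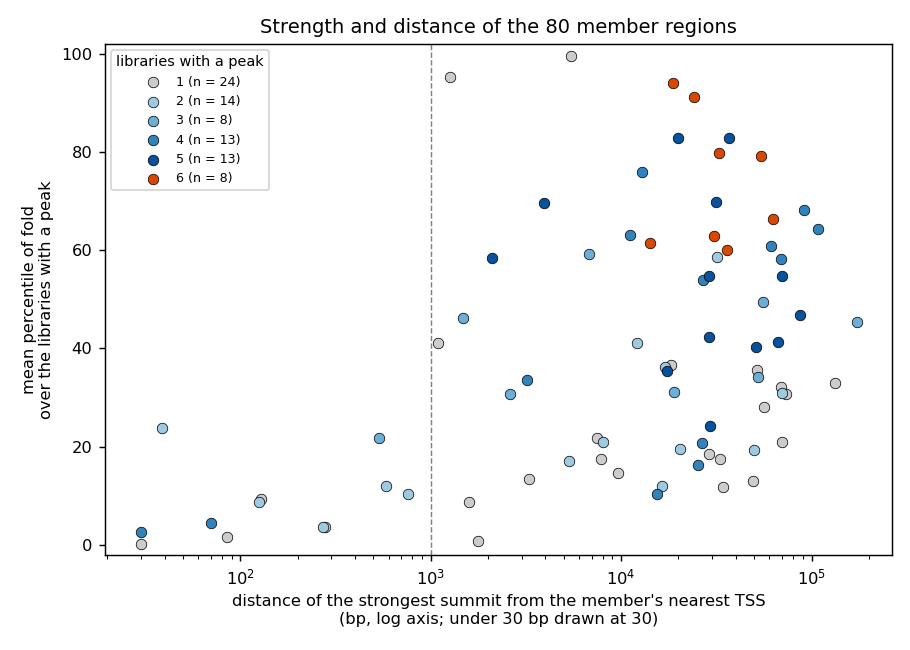
Each point is 1 of the 80 member regions: its distance from the member's nearest TSS (log axis) against its mean percentile of fold over the libraries that called it, coloured by the number of those libraries. Regions left of the dashed line at 1 kb have a mean percentile of 23.8 or less; the 2 grey points near the top, at 1.27 and 5.43 kb, are the Cdk2 exon peaks of NfiA CD1.

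A promoter peak, with its summit within 1 kb of a TSS of the member, was present in at least 1 library for 9 members (20.5%, against 16.7% of all genes): Mycn, E2f1, E2f2, E2f3, Mcm7, Cdk1, Cdkn1b, Cdkn2c and Rbl2. Both NfiB libraries had one at 5 of them, Mycn, E2f1, Mcm7, Cdk1 and Cdkn1b (11.4%, against 9.15% of all genes). By library, 8 members had a promoter peak in NfiB CD1 (18.2%, against 13.5%), 6 in NfiB Mixed (13.6%, against 11.9%), 2 in NfiX Mixed (4.55%, against 3.79%), 1 in NfiA CD1 (2.27%, against 3.28%), 1 in NfiA Mixed (2.27%, against 5.75%) and 0 of 44 in NfiX CD1 (against 0.824%). NfiB libraries contributed 20 of the 25 promoter peaks, a share of 80%, and 65.9% of the promoter peaks of all genes. Peaks in NfiB alone made up 9 of the 12 regions at a member's own promoter (75%). Within 1 kb of any protein-coding TSS they made up 9 of 13 member regions (69.2%) and 61.9% of all regions. None of the 9 genes had a promoter peak among the 7497 strongest peaks of any library, where 1.5% of all genes had one.

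Mcm7 and Cdk1 had promoter peaks in 4 libraries each. The Mcm7 region 0.0700 kb downstream of its TSS (chr5:138170980-138171461) had folds of 3.27 for NfiA Mixed, 3.04 and 2.98 for NFIB and 3.42 for NfiX Mixed, on 41 to 55 fragments. It shares this stretch with Ap4m1, an adaptor complex gene whose TSS is 0.831 kb away, so the peaks cannot be given to either gene. Over the Cdk1 TSS (chr10:69352683-69353121) folds were 3.35 in NfiA CD1, 2.52 in NfiB CD1, 3.08 in NfiB Mixed and 2.77 in NfiX Mixed. A second Cdk1 region in the first kilobase of the gene had folds of 4.20, 5.46 and 3.12 in NfiA CD1, NfiB CD1 and NfiB Mixed. The Mycn promoter had 2 regions, one over the TSS (folds 4.75 and 3.72 in NfiB CD1 and NfiB Mixed) and one 0.583 kb upstream (4.0 and 3.07). For Cdkn1b the summit lay 0.125 kb upstream of the TSS (chr6:134920124-134920428), with folds of 3.73 in NfiB CD1 and 2.92 in NfiB Mixed on 65 and 56 fragments.

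These low folds did not come with few fragments. In NfiB CD1 the 11 member peaks at promoters had a median fold of 3.14 on a median of 45 fragments over a local background of 10.7 fragments, and the 57 other member peaks had 6.18 on 34 fragments over 4.54. All peaks of that list divided in the same way, with 3.39 over a background of 11.0 at promoters and 5.97 over 3.58 elsewhere. In NfiB Mixed the 9 promoter peaks had a median fold of 3.07 and a background of 10.7, and the 53 others 5.34 and 5.36. The local background was thus higher at promoters in both NfiB libraries, and its part in the low folds was not tested. Over all 6 libraries the 25 promoter peaks had folds of 2.05 to 5.46 and a median percentile of 5.18. This comparison was chosen after the values had been seen.

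**Figure D4:**
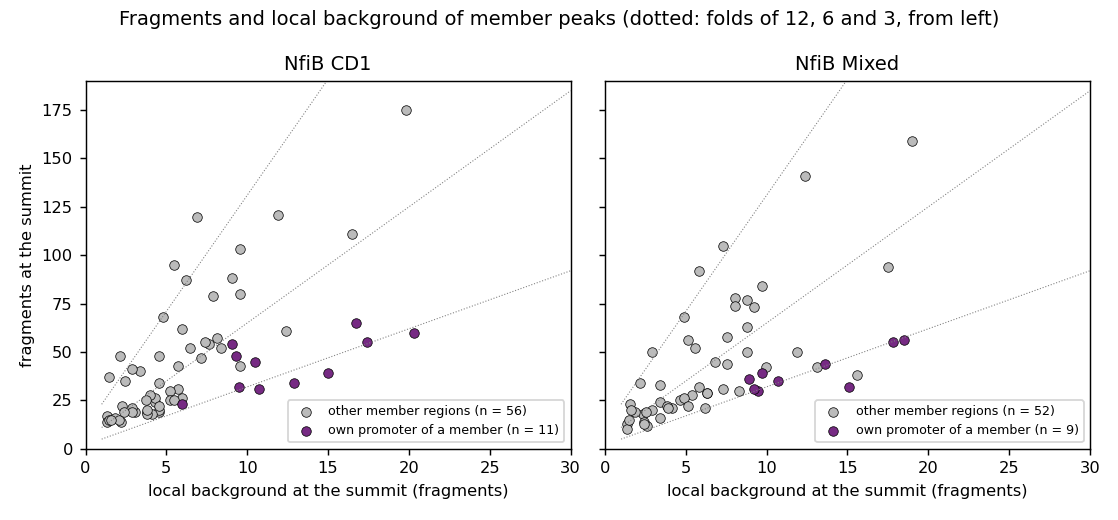
Fragments at the summit against local background for each member region called in NfiB CD1 (left) and NfiB Mixed (right), with the strongest peak of each region plotted. Purple points are a member's own promoter and grey points all other member regions; dotted lines mark folds of 12, 6 and 3 from left to right, and the promoter points have folds of 2.05 to 5.46.

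The promoter sequences of 34 of the 44 genes, 40 promoters in all, were found in the RefSeq table (GRCm38.p6, 250 bases before to 50 after the start, 32851 promoters). The words of the known cell cycle regulators were frequent in them. An E2F word, TTTCCCGC or TTTGGCGC on either strand, was in 9 member promoters (22.5%, against 1.56% of all promoters), among them 4 of 6 replication genes, 4 of 7 E2F and G1/S genes and 0 of 9 G2 and mitosis genes. The CHR word TTTGAA, bound by the DREAM and MuvB complexes in mitotic genes, was in 13 (32.5%, against 17.9%), 7 of them among the 9 G2 and mitosis genes. CCAAT, the site of NF-Y, was in 28 (70.0%, against 37.4%) and in 9 of 9 G2 and mitosis genes. The E-box CACGTG was in 4 (10%, against 7.15%).

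Of the NFI words, the full palindrome was in 0 of 40 member promoters and in 0.0365% of all promoters, and the 6-base element TTGGCA was in 2 (5.0%, against 14.1%), those of Bub1 and Cdkn1b. The 5-base arm TTGGC, looked for after these counts were known, was in 24 (60%, against 46.7%), including 9 of 9 G2 and mitosis genes. Bub1 had no peak, and Cdkn1b had its promoter peak in both NfiB libraries. A match to a word is a description and not a bound site, and the words overlap in part, since the E2F word TTTGGCGC holds TTGGC, and GCCAAT holds both this arm and CCAAT. The promoters of Cdk1, Cdkn1b and Mycn are shown up to their start because a promoter peak was called there in both NfiB libraries. They are examples, picked after the peaks and words were known. In Cdk1 (chr10:69352939-69353162, minus strand) the capitals mark 3 CCAAT words, read as ATTGG, and the CHR word, while the 5-base arm, not marked by itself, occurs 3 times on either strand. In Cdkn1b (chr6:134920151-134920400, plus strand) they mark the element TTGGCA and 2 CCAAT words. In Mycn (chr12:12941915-12942086, minus strand) they mark 2 E2F words, each with a TTGGC inside.
Cdk1 promoter: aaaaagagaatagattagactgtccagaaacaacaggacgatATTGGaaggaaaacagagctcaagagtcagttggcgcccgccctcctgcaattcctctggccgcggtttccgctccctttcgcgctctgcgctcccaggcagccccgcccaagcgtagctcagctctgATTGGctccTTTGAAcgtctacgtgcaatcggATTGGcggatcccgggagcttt
Cdkn1b promoter: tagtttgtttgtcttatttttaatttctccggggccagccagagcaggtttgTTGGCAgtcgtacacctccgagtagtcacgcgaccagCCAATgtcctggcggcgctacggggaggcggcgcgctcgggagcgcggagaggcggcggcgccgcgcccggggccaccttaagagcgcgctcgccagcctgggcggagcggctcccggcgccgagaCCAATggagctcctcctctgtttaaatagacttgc
Mycn promoter: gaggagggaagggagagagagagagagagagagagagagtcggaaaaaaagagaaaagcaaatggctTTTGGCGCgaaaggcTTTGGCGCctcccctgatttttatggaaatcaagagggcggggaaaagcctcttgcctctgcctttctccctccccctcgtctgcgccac

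The number of regions followed the stretch of genome that the rule gives to a gene, meaning its body plus the sequence nearest to its TSSs within 100 kb. Members with a peak had a median stretch of 60.9 kb and those without one 27.9 kb. Over all genes these medians were 94.0 and 33.0 kb. The Spearman correlation of stretch and number of regions was 0.54 over the 44 members and 0.54 over all genes, given here as a description. Per megabase the members held 25.3 regions and all genes 19.9. By role the density was 30.8 for E2F and G1/S genes, 26.3 for G1 genes, 25.8 for inhibitors and exit genes, 25.7 for replication genes and 16.2 for G2 and mitosis genes. The median stretch was 119 kb for G1 genes, 84.7 kb for inhibitors and exit genes, 45.5 kb for E2F and G1/S genes, 31.3 kb for G2 and mitosis genes and 22.7 kb for replication genes, and its part in the counts by role was not tested.

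**Figure D5:**
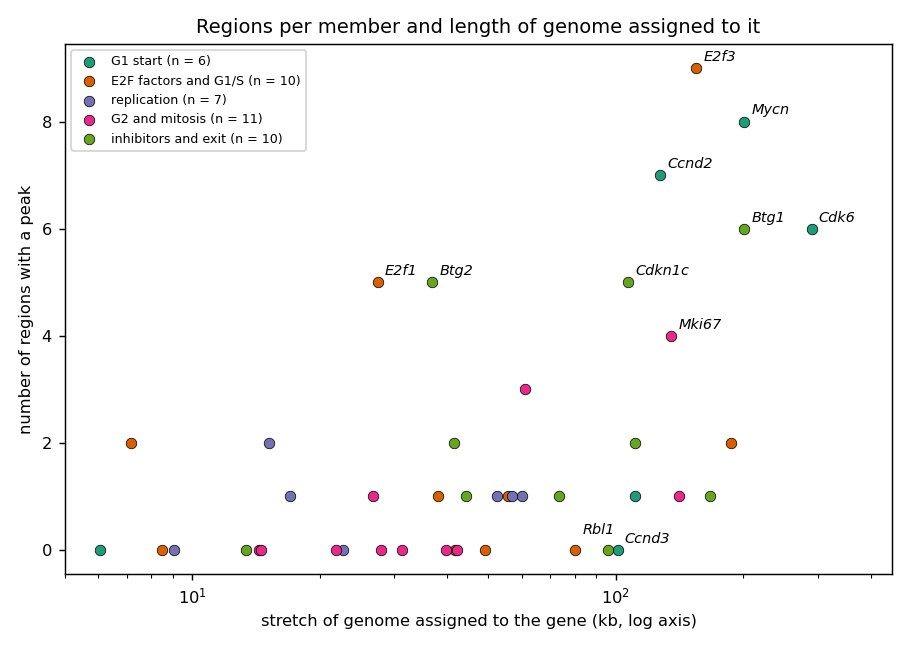
Number of regions per member against the stretch of genome assigned to it (kb, log axis), coloured by role. Members with 4 or more regions are named, as are Rbl1 and Ccnd3, which have 0 regions on 95.9 and 101 kb; E2f1 has 5 regions on 27.4 kb.

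The 17 members without a peak in any library were Ccnd3, Cdk4, Ccne1, Ccne2, E2f4, E2f5, Mcm4, Pcna, Ccna2, Ccnb1, Top2a, Aurka, Aurkb, Bub1, Cdc20, Cdkn2d and Rbl1. Their assigned stretches ran from 6.06 kb for Cdk4 to 101 kb for Ccnd3. For Ccnd3 and E2f4 the rule itself mattered: both had peaks within 5 kb of a TSS in both NfiB libraries, but outside their gene bodies and nearer to the TSS of another gene. A missing peak shows only that no peak was called at the authors' threshold.

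Member regions recurred between the backgrounds with shares near those of all regions. Of the 32 member regions in NfiA CD1, the shorter NFIA list, 25 were also in NfiA Mixed (78.1%, 95% Wilson interval 61.2 to 89.0, against 82.7% of all regions). For NFIB 51 of 61 recurred (83.6%, 72.4 to 90.8, against 79.4%), and for NFIX 8 of 8 (100%, 67.6 to 100, against 93.1%). With lists of equal length the NFIX share was 62.5% (5 of 8, against 65.5% of all regions). Of the 80 regions, 24 were in a single library (30%, against 31.9% of all regions). NfiB CD1 alone had 12 (15.0% of member regions, against 16.4% of all regions) and NfiB Mixed alone 9 (11.2%, against 9.60%). Peaks in NfiB libraries alone made up 33 regions (41.2%, against 35.7%), and 7 members, Ccnd1, E2f2, Mcm2, Mcm6, Cdkn1a, Cdkn1b and Cdkn2c, had no other kind. How many of all genes had only such peaks was not counted. With lists of equal length none of these 7 had a peak in any library, where 34.1% of members and 23.2% of all genes had one.

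By place, 13 member regions were at a promoter of any protein-coding gene (16.2%, Wilson interval 9.75 to 25.8, against 8.54% of all regions). They include a Cdk2 exon peak that lies 0.458 kb from the TSS of Pmel. The base of all regions also holds regions that the rule gave to no gene, which cannot be at a promoter. This lowers the share of all regions, and a share over assigned regions alone was not counted. Introns held 19 member regions (23.8%, against 41.2%), other exons 6 (7.5%, against 3.68%) and intergenic sequence 42 (52.5%, against 46.6%). The nearest TSS assigned 73 of the regions and the gene body alone 7. In 5 cases the summit lay only in the body of another protein-coding gene, for E2f8 in Nav2, for Ccnb2 in Myo1e, for Cdkn1c in Kcnq1 with 2 regions and for Rbl2 in Chd9. The Ccnd1 region lay in the bodies of both Ccnd1 and LTO1, and the second Mcm7 region in those of both Mcm7 and Ap4m1.

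A further 76 cell cycle genes, listed for their role, had a peak in 43 cases (56.6%, against 48.4% of all genes), a common region in 12 (15.8%, against 13.2%) and a promoter peak in 19 (25.0%, against 16.7%). The 12 with a common region included Myc and its partner Max, the E2F partner Tfdp2, the ribonucleotide reductase gene Rrm2, the kinetochore genes Cenpe and Cenpf and the antiproliferative gene Tob2. Their density was 23.4 regions per megabase, between the 25.3 of the members and the 19.9 of all genes.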

How the data were processed

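The labels describe 8 samples, of which the 6 immunoprecipitated libraries have a peak list. Per the submitters' processing notes the tools were Bowtie2 2.2.6, SAMtools 1.4.1 and MACS2 2.1.0, on mm10. Their settings, and any use of the inputs as controls, were not given in the sources used here. Peaks were deposited as 1 narrowPeak list per library, with no pooled list. Its fold enrichment is a ratio over local background made by the authors, and its −log10 p-value and −log10 q-value per peak are the authors' as well. The deposited score was not used. The highest q-value in a list was 0.0411 to 0.0492.

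Read totals were not used, so depth was judged from the fragments at each summit, recovered as the whole number that a Poisson model needs to return the fold and p in the file (100% of peaks within 0.002 on the −log10 p scale). Peaks overlapping by 1 bp or more were merged. Genes were those of GENCODE M21 on the same build, and coordinates are 1-based. Results are counts and ranks, set beside all 21853 genes or all regions where that count was made, with no test. Wilson intervals are at 95% and cover counting error only. Python 3.11.15 and scipy 1.17.1 were used, and the merging, assignment and fragment steps were tested on simulated data.

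Members and lists were chosen with earlier results of these data known. Named with values in every library were members with a common region, those with promoter peaks in 4 or more libraries, the 10 with most regions and those without a peak. Values of the other members were added after they had been seen, as were the short palindrome, the 5-base NFI arm, the comparison by distance and the look at Cdk2. Alternatives were a nearest-TSS rule, a limit of 10 kb, −log10 q of at least 5, lists of equal length, 50% overlap, promoter windows of 500 bp and 5 kb, and leaving out each library. No genome sequence was used, so intergenic summits have no sequence here.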

Additional observations from a re-analysis of the deposited data

How the results depend on the processing

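Of 51 planned recounts over 5 counts, 40 stayed within 1.5 times the main count. With the 7497 strongest peaks per library, members with a peak went from 27 to 15 (34.1%, against 23.2% of all genes), members with a common region from 6 to 3, common member regions from 8 to 3, and members with a promoter peak, in at least 1 or in both NfiB libraries, from 9 and 5 to 0 and 0. These recounts hold fewer peaks by construction. With a limit of 10 kb, members with a common region and common member regions both went to 0. With promoter windows of 5 kb the promoter counts were 16 (36.4%, against 25.6% of all genes) and 9 (20.5%, against 15.5%). Leaving out each library in turn gave 23 to 27 members with a peak, 6 to 12 with a common region, 8 to 21 common member regions, 6 to 9 with a promoter peak and 5 to 5 with one in both NfiB libraries. The highs of 12 and 21 were without NfiX replicate 1, the CD1 library with the shortest list, and no count for both NfiB libraries exists without either of them. At −log10 q of 5 or more, with nearest TSSs only, with 50% overlap or with 500 bp promoters, no count moved by over 1.5 times. Recurrence was recounted after the data had been seen: with equal lists it was 61.5% for NFIA (8 of 13 regions, against 66.9% of all regions), 80% for NFIB (8 of 10, against 72.2%) and 62.5% for NFIX (5 of 8, against 65.5%), the last below the interval of the full lists. No paired analysis was possible because the results come from no test. The Plk1 peaks rest on 12 to 14 fragments and the Rb1 peaks on 11 to 19, fewer than the 21 to 28 of the median summits.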
